A study of Mus musculus with 6 samples.

Results

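Cholesterol synthesis and sterol control genes were followed between epiblast-like cells (EpiLCs), a cultured state that resembles the epiblast after implantation, and embryonic stem cells (ESCs), which resemble the epiblast before implantation. The members were the 27 genes named for this pathway, matched by gene symbol in a deposited table of 78298 genes. All 27 were found once and all passed the filter of a mean of at least 1 TPM (a length-scaled share of a library's transcripts, the unit used throughout) that left 14036 genes for testing. Poly(A) RNA was sequenced from 3 wild-type EpiLC libraries and 3 wild-type ESC libraries, all from 1 mouse line that the labels name BVSC clone H18. No treatment is given for either group, and the labels do not describe how the EpiLCs were induced. The libraries are labelled as biological replicates without further detail, so p-values cover only the variation among these 6 libraries, and results from 1 clone need not hold for other lines. Every library sums to 1000000 TPM, which leaves the read depth behind each value unknown.

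Cholesterol is built in the cytosol and endoplasmic reticulum from acetyl-CoA. A first series of enzymes makes mevalonate and isoprenoid units and joins them into squalene (called here the mevalonate arm), and a second series closes the sterol rings and trims them to cholesterol (the sterol arm). The supply is set by SREBP transcription factors, which are held in the endoplasmic reticulum by Scap and Insig proteins while sterol is plentiful and released to the nucleus when it runs low. In embryos the end product is also attached to Hedgehog ligands, and defects in several enzymes of the route cause inherited malformation syndromes.

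The labels fitted the RNA. Summed over 5 markers each, genes of the EpiLC state (Fgf5, Otx2, Pou3f1, Dnmt3b, Dnmt3a) lay between 801 and 1077 TPM in EpiLCs and between 34.1 and 35.6 TPM in ESCs, and ESC genes (Klf4, Tbx3, Tfcp2l1, Esrrb, Zfp42) between 54.4 and 68.5 TPM in EpiLCs and between 782 and 853 TPM in ESCs. Markers of other cells summed to at most 20.5 TPM in any library, and the neural and fibroblast sums were higher in EpiLCs than in ESCs. The 8 endoderm markers summed to 1.74 to 2.90 TPM in EpiLCs and 5.15 to 6.13 TPM in ESCs, 6 of them under 1 TPM in every library, and the 4 primitive streak and mesoderm markers to 3.13 to 3.83 TPM in EpiLCs and 6.48 to 7.87 TPM in ESCs. The 6 fibroblast markers summed to 10.3 to 12.9 TPM in EpiLCs and 3.18 to 5.70 TPM in ESCs, with Thy1 the highest. The 3 neural markers summed to 12.1 to 20.5 TPM in EpiLCs and 2.28 to 2.83 TPM in ESCs, and the 3 trophoblast markers to 0.342 to 0.747 TPM in EpiLCs and 0.156 to 0.363 TPM in ESCs. None of these markers was at 0 in all 6 libraries, and their part in the results was not tested. Fewer cells of a type and less RNA per cell cannot be told apart in bulk RNA.

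Most genes of the synthesis route were higher in EpiLCs, while the genes of sterol control and transport did not follow them as a group. Of the 27 members, 19 (70.4%) were called higher at a limma adjusted p of 0.05, against 36.1% of all tested genes, and 4 (14.8%) were called lower, against 30.9% of all tested genes. All 8 genes of the mevalonate arm rose, as did 8 of the 11 genes of the sterol arm, against 3 of the 8 control and transport genes. The steepest increases were those of Lss, Mvd, Fdps and Sqle, and the steepest decreases those of Npc2 and Ebp. The median log2 fold change (EpiLC minus ESC, on log2(TPM + 1)) was 0.53 in the mevalonate arm, 0.55 in the sterol arm and -0.02 among the control and transport genes, against 0.04 over all tested genes.

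The increases were moderate in size. Only Mvd, Fdps, Sqle and Lss were called with a log2 fold change of at least 1, or 14.8% of members against 9.87% of all tested genes, and Ebp and Npc2 were lower by that much, or 7.41% against 9.4%. Fdps and Sqle lay close to that limit. Under median-of-ratios scaling they were at 0.98 and 0.96, which left 2 of the 27 members (7.41%) against 9.28% of all tested genes. Sqle was also under it with quantile normalization and without EpiLC replicate 3, ESC replicate 1 or ESC replicate 2, which each left 3 members. In 19 members every EpiLC value lay above every ESC value, a pattern seen in 38.4% of all tested genes, and in 4 members every EpiLC value lay below every ESC value, against 33.1% of all tested genes. These 23 genes were the same as those called by limma.

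**Figure D1:**
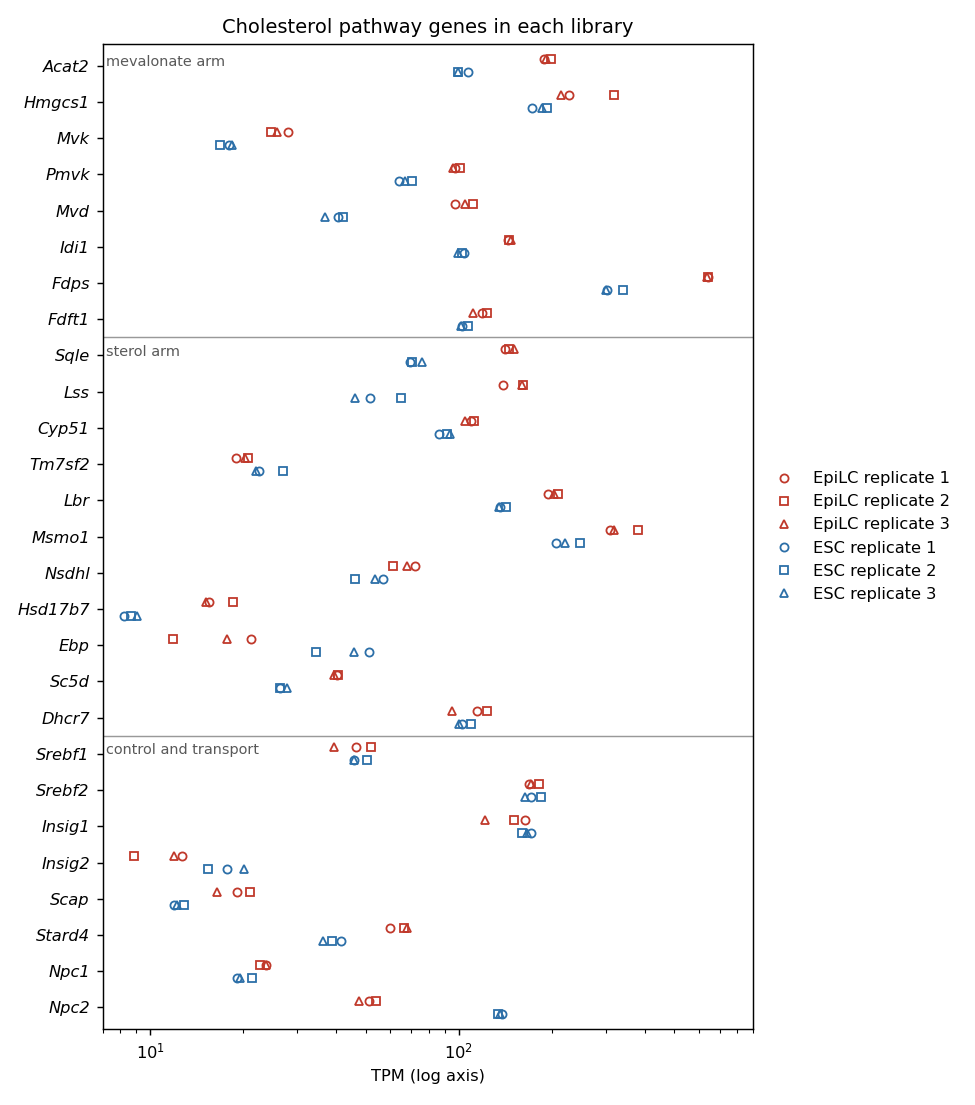
TPM on a log axis (x) for the 27 genes in pathway order (y), with EpiLC libraries in red above ESC libraries in blue and a symbol for each replicate. The red symbols lie to the right of the blue ones in all 8 genes of the mevalonate arm, whereas Ebp and Npc2 show the opposite order.

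**Figure D2:**
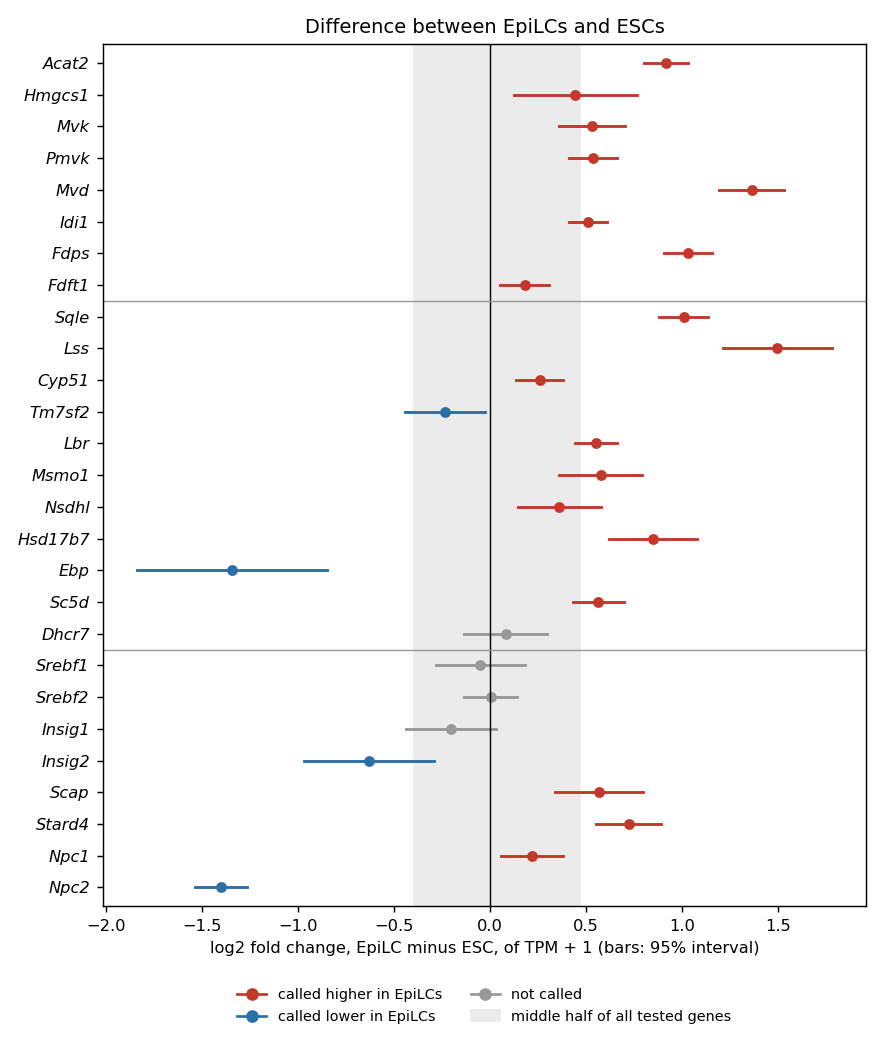
Log2 fold change of TPM + 1, EpiLC minus ESC (x), with 95% limma intervals, for the 27 genes in pathway order (y). The grey band is the interquartile range of all tested genes, from -0.40 to 0.47, and Lss, Mvd, Npc2 and Ebp lie farthest outside it.

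Promoter sequence of the members was examined as a description. RefSeq windows from 250 bases before to 50 bases after each transcript start (GRCm38.p6, a build other than the authors' GRCm39) were found for 22 of the 27 members, and a gene counted as holding a motif if any of its windows did, on either strand. Forms of the sterol regulatory element, the DNA element that SREBP proteins are known to bind, were searched as TCACNCCA and CACCCCAC. TCACNCCA was in 3 of the 22 members (13.6%), against 4.52% of the 9793 tested genes with a window and 4.97% of all 27025 genes, and CACCCCAC in 2 (9.09%), against 3.80% and 3.30%. The CCAAT box, bound by NF-Y, was in 20 of 22 members (90.9%), against 44.4% of tested and 41.1% of all genes, and GGGCGG, the GC box bound by Sp1, in 21 of 22 (95.5%), against 69.9% and 38.2%. Both CCAAT and GGGCGG were found in 19 of 22 members (86.4%), against 30.7% of tested genes. The 2 motifs could lie in different windows of a gene, as they did in Insig2. Acat2 and Scap lacked the CCAAT letters and Pmvk the GGGCGG letters, and all of these were called higher. Tm7sf2, Ebp, Insig2 and Npc2, which were called lower, held both motifs, as did most members called higher that had a window. The uncalled Dhcr7, Srebf1, Srebf2 and Insig1 held both as well. A link between motifs and direction of change was not tested. These are matches of letters in a short window and not measured binding.

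The 200 bases before the start are shown for the 4 members that hold a sterol element form, 5′ to 3′ along the gene, with matches to any of the 4 motifs on either strand in capitals. In Hmgcs1 the 2 forms overlap in the run TCACCCCAC, which begins 137 bases before the start. Msmo1, with the form TCACTCCA 177 bases before the start, also carries 3 CCAAT boxes. In Acat2 the only form is CACCCCAC at 181 bases, and in Srebf2, whose own RNA level was not called, it is TCACCCCA at 162 bases.
Acat2, chr17:12960726-12960925, minus strand: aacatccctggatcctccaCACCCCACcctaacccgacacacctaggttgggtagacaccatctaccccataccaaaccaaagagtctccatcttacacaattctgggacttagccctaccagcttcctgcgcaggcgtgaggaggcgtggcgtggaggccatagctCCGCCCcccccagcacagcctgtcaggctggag
Hmgcs1, chr13:119690151-119690350, plus strand: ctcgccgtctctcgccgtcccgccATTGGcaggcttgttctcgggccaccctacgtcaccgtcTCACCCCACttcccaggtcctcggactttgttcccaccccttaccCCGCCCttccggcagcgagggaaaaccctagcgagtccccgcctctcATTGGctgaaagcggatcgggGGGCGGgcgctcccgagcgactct
Msmo1, chr8:64733579-64733778, minus strand: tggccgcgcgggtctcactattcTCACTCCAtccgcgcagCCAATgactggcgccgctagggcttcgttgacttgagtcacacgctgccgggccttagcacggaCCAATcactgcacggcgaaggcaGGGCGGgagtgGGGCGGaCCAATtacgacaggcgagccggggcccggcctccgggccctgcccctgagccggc
Srebf2, chr15:82147069-82147268, plus strand: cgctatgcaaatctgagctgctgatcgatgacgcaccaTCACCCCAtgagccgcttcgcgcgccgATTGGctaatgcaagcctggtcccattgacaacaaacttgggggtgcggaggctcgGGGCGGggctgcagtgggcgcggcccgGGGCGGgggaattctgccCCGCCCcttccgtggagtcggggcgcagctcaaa

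The same stretch follows for the steepest increase in each arm with a window, Mvd and Lss, and for the steepest decrease among the enzymes, Ebp. None of these 3 windows held either sterol element form, and all 3 held CCAAT (or ATTGG, its reverse) and GGGCGG (or CCGCCC).
Mvd, chr8:122443423-122443622, minus strand: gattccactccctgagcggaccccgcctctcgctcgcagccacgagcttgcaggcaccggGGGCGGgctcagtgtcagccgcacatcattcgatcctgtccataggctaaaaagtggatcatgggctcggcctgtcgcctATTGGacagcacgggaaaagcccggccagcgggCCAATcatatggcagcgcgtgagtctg
Lss, chr10:76531405-76531604, plus strand: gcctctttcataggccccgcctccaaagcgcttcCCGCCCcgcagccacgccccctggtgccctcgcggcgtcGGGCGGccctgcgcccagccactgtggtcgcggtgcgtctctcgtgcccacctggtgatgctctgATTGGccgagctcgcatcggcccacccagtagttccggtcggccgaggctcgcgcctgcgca
Ebp, chrX:8193513-8193712, minus strand: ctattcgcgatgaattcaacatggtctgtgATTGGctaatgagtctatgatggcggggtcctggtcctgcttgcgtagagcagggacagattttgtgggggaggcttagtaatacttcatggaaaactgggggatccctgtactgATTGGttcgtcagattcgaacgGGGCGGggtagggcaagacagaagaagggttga

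The mevalonate arm rose at every member. Acat2 (ENSMUSG00000023832), the cytosolic thiolase that joins acetyl-CoA units, was at 189, 199.6 and 192 TPM in the EpiLC libraries, against 107, 99.2 and 99.6 TPM in the ESC libraries (log2 fold change 0.92, SE 0.05, adjusted p = 3.3e-06). The ranges are well apart, a 1.90-fold difference in means. Hmgcs1, the synthase that makes HMG-CoA, was at 227, 319 and 215 TPM in EpiLCs, against 172, 192 and 186 TPM in ESCs (log2 fold change 0.44, SE 0.14, adjusted p = 0.022). EpiLC replicate 2 was far above the other EpiLC libraries, and all 3 exceeded the ESC range. The call on Hmgcs1 was lost when ESC replicate 1 was left out (adjusted p = 0.068) and with no TPM filter (adjusted p = 0.074). Without EpiLC replicate 2 the log2 fold change was 0.27 in place of 0.44, and p ran from 0.0068 to 0.074 over the alternatives.

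The kinases and the decarboxylase that turn mevalonate into the isoprenoid unit differed in size of change. Mvk, mevalonate kinase and the least abundant enzyme gene of this arm, averaged 26.1 ± 1.74 TPM in EpiLCs and 17.7 ± 0.776 TPM in ESCs (SD, n = 3 each), and Pmvk, phosphomevalonate kinase, averaged 98.1 ± 2.67 TPM in EpiLCs and 67.3 ± 3.24 TPM in ESCs. Both rose by about the same log2 amount, 0.53 for Mvk and 0.54 for Pmvk. Mvd, which decarboxylates mevalonate diphosphate, was at 96.9, 111 and 105 TPM in EpiLCs, against 40.6, 42.1 and 36.8 TPM in ESCs. The groups were far apart, and the difference in means was 2.61-fold (log2 fold change 1.36, SE 0.07, adjusted p = 2.9e-06).

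The isoprenoid condensing steps included the most abundant member of all. Idi1, the isomerase of the isoprenoid unit, averaged 146 ± 1.78 TPM in EpiLCs and 102 ± 2.44 TPM in ESCs (log2 fold change 0.51). Fdps, which makes farnesyl diphosphate, was at 644, 644 and 638 TPM in EpiLCs, against 302, 340.1 and 301 TPM in ESCs (log2 fold change 1.03, SE 0.05, adjusted p = 2.8e-06). The EpiLC libraries had a coefficient of variation of 0.498%, the smallest of any member in either state, and the means differed 2.04-fold. Fdft1, squalene synthase, commits farnesyl diphosphate to sterols and rose least. It averaged 118 ± 6.24 TPM in EpiLCs and 104 ± 3.17 TPM in ESCs (log2 fold change 0.18, SE 0.05, adjusted p = 0.019), and the call was lost without EpiLC replicate 1 (adjusted p = 0.0532), EpiLC replicate 2 (0.0573), ESC replicate 1 (0.0589) or ESC replicate 3 (0.0622) and under median-of-ratios scaling (0.0503), and p ran from 0.01 to 0.062 over the alternatives.

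All 3 of the first sterol arm genes rose, and the fold changes of Sqle and Lss exceeded that of Cyp51, a difference that was not tested. Sqle, squalene epoxidase, an oxygen-requiring and rate-controlling step, was at 142, 145 and 151 TPM in EpiLCs, against 69.4, 70.8 and 76.2 TPM in ESCs (log2 fold change 1.01, SE 0.05, adjusted p = 3.1e-06). Lss, the cyclase that forms lanosterol, was at 139, 161 and 160.0 TPM in EpiLCs, against 51.6, 64.8 and 46.0 TPM in ESCs (log2 fold change 1.496, SE 0.12, adjusted p = 2.3e-05). This 2.83-fold difference in means was the largest of the 27, and no EpiLC value came near the ESC range. Cyp51, the demethylase that acts on lanosterol, averaged 109 ± 3.54 TPM in EpiLCs and 90.6 ± 4.06 TPM in ESCs and rose by 0.26 (adjusted p = 0.0030).

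The next reaction, reduction of the C14 double bond, can be carried out by Tm7sf2 or by Lbr, a nuclear envelope protein with a reductase domain, and their RNAs went in opposite directions. Lbr was at 195, 209 and 203 TPM in EpiLCs, against 136, 142 and 135 TPM in ESCs (log2 fold change 0.55, SE 0.05, adjusted p = 2.8e-05). Tm7sf2 was at 19.03, 20.7 and 20.3 TPM in EpiLCs, against 22.4, 26.9 and 22.1 TPM in ESCs (log2 fold change -0.23, SE 0.09, adjusted p = 0.049). The ranges of Tm7sf2 are close, and its call was kept in 6 of 14 alternatives. Leaving out ESC replicate 3 kept it, and leaving out any of the other 5 libraries gave an adjusted p of 0.0581 to 0.138. Without ESC replicate 2 its log2 fold change was -0.15 in place of -0.23. It was also lost without replicate 2 of both groups (adjusted p = 0.121), with no TPM filter (0.0988) and under quantile normalization (0.0514), and p ran from 0.027 to 0.14 over all alternatives. Within each library the log2 ratio of Tm7sf2 over Lbr of TPM + 1 averaged -3.28 ± 0.02 in EpiLCs and -2.49 ± 0.11 in ESCs (SD, n = 3 each), a difference of -0.79, lower in all 3 EpiLC libraries. A two-sided exact permutation test gave p = 0.1, the smallest that 3 against 3 libraries allow, so no such ratio can pass 0.05. Adjusted over the 5 ratios compared, p was 0.167.

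The C4 demethylation enzymes, which strip methyl groups from the sterol nucleus, all rose. Msmo1, the C4 methyl oxidase and the most abundant gene of this arm, was at 310.1, 380.3 and 319 TPM in EpiLCs, against 207, 247 and 221 TPM in ESCs (log2 fold change 0.58, SE 0.09, adjusted p = 8.6e-04). EpiLC replicate 2 was again the highest, and the groups did not overlap. Hsd17b7, the ketosteroid reductase of this step and the least abundant enzyme gene in both states, was at 15.5, 18.6 and 15.1 TPM in EpiLCs, against 8.19, 8.67 and 9.03 TPM in ESCs (log2 fold change 0.85, SE 0.10, adjusted p = 1.5e-04). Nsdhl, the C4 decarboxylase, was at 72.1, 61.1 and 68.0 TPM in EpiLCs, against 56.7, 46.0 and 53.5 TPM in ESCs (log2 fold change 0.36, SE 0.09, adjusted p = 0.0093). In Nsdhl replicate 2 was the lowest library of each group.

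Ebp went against most of the synthesis route and fell more steeply than Tm7sf2, the other enzyme gene called lower. Ebp (ENSMUSG00000031168), the isomerase that moves the sterol ring double bond, was at 21.2, 11.9 and 17.7 TPM in EpiLCs, against 51.1, 34.5 and 45.8 TPM in ESCs (log2 fold change -1.34, SE 0.21, adjusted p = 8.0e-04). Every EpiLC value lay below the lowest ESC value, with means 2.59-fold lower, and the spread was the widest of all members in both groups (coefficient of variation 27.8% in EpiLCs and 19.3% in ESCs). Like Nsdhl, Ebp lies on the X chromosome and was lowest in replicate 2 of each group. The median of 525 tested X-linked genes, divided by that of 12804 autosomal genes, was 0.857, 0.652 and 0.845 in EpiLC replicates 1 to 3, against 0.803, 0.578 and 0.763 in ESC replicates 1 to 3. Replicate 2 held the lowest value of its group for 69.0% of X-linked genes in EpiLCs and 85.0% in ESCs. Over all tested genes that share was 28.9% for EpiLC replicate 2 and 36.0% for ESC replicate 2. Without both replicate 2 libraries, an alternative chosen after the data were seen, Ebp differed by -1.28 and Nsdhl by 0.34 on the log2 scale, and both calls held.

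The last steps were mixed. Sc5d, the sterol desaturase, was at 40.2, 40.6 and 39.3 TPM in EpiLCs, against 26.2, 26.3 and 27.8 TPM in ESCs (log2 fold change 0.56, SE 0.06, adjusted p = 6.8e-05). The values within a state were almost equal, and the states were far apart. Dhcr7, which reduces 7-dehydrocholesterol and stands at a branch point with vitamin D synthesis, was at 114, 123 and 95.3 TPM in EpiLCs, against 103, 109.6 and 100.5 TPM in ESCs. The groups overlapped and Dhcr7 was not called (log2 fold change 0.08, 95% interval -0.13 to 0.30, adjusted p = 0.46), but leaving out EpiLC replicate 3 gave a call of higher (log2 fold change 0.19, adjusted p = 0.039), and p ran from 0.039 to 0.97 over the alternatives.

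Added over the 8 genes of the mevalonate arm, the libraries held 1545, 1668 and 1530.5 TPM in EpiLCs, against 910.3, 971 and 909 TPM in ESCs, a ratio of means of 1.70. The sterol arm held 1177, 1284 and 1194 TPM in EpiLCs, against 817, 869 and 831 TPM in ESCs, a ratio of 1.45. The control and transport genes held 545, 557 and 499.9 TPM in EpiLCs, against 617, 619 and 599 TPM in ESCs, a ratio of 0.873. That lower sum was not seen without Npc2. Among the other genes, falls such as that of Insig2 stood beside rises such as that of Stard4. The other 7 control and transport genes summed to 494, 503 and 452 TPM in EpiLCs, against 479, 485 and 463 TPM in ESCs, a ratio of 1.02 with overlapping groups. No test was made of these sums, since the most abundant genes weigh most in them, such as Fdps, Msmo1 and Hmgcs1 in the synthesis arms.

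**Figure D3:**
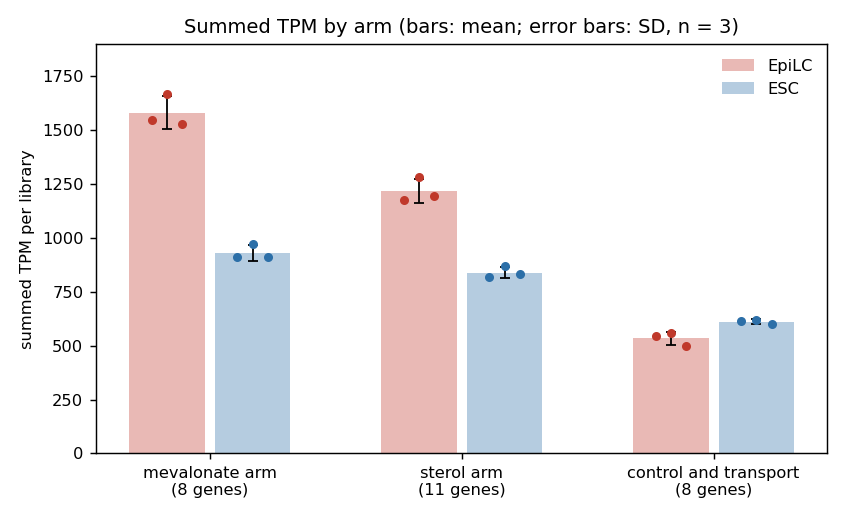
Summed TPM per library (y) for the mevalonate arm, the sterol arm and the control and transport genes (x), EpiLC in red and ESC in blue, with points for libraries, bars for means and error bars for the SD (n = 3). Mean sums of the mevalonate arm were 1581 TPM in EpiLCs and 930.3 TPM in ESCs, those of the sterol arm 1218 TPM in EpiLCs and 839 TPM in ESCs, and those of the control and transport genes 534 TPM in EpiLCs and 611 TPM in ESCs.

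The SREBP genes themselves did not pass the test. Srebf2, the SREBP that chiefly drives cholesterol genes, was at 168, 182 and 171 TPM in EpiLCs, against 172, 185 and 163 TPM in ESCs (log2 fold change 0.00, 95% interval -0.13 to 0.14, adjusted p = 0.96). Srebf1, whose products mainly serve fatty acid synthesis, was at 46.5, 51.8 and 39.4 TPM in EpiLCs, against 45.7, 50.4 and 45.8 TPM in ESCs (log2 fold change -0.05, 95% interval -0.28 to 0.18, adjusted p = 0.68). Both genes had overlapping groups, and the intervals leave room for changes of up to 0.14 and 0.28 on the log2 scale. Srebf2 exceeded Srebf1 3.78-fold in EpiLCs and 3.67-fold in ESCs, and the log2 ratio differed by 0.05 between the states (two-sided exact permutation p = 0.9). These are RNA levels and hold no measure of the cleaved, active proteins.

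The genes of SREBP escort and retention split. Scap, the sterol sensor that carries SREBPs to the Golgi, was at 19.1, 21.1 and 16.5 TPM in EpiLCs, against 11.9, 12.9 and 12.2 TPM in ESCs (log2 fold change 0.57, SE 0.10, adjusted p = 0.0013). Insig1, a retention protein gene and itself an SREBP target, was at 163, 151 and 122 TPM in EpiLCs, against 171, 161 and 166 TPM in ESCs. It was not called (log2 fold change -0.20, 95% interval -0.43 to 0.03, adjusted p = 0.11), but was called lower when EpiLC replicate 1 was left out (adjusted p = 0.0312) and under median-of-ratios scaling (adjusted p = 0.0491). Without EpiLC replicate 3 the log2 fold change was -0.08 in place of -0.20, and p ran from 0.031 to 0.27 over the alternatives. Insig2, the other retention protein gene, was at 12.7, 8.83 and 12.0 TPM in EpiLCs, against 17.7, 15.4 and 20.1 TPM in ESCs (log2 fold change -0.63, SE 0.15, adjusted p = 0.0057). Neither Insig gene was called higher, and Insig2 fell with no overlap between groups. Insig1 was 13.0-fold more abundant than Insig2 in EpiLCs and 9.36-fold in ESCs, and their log2 ratio did not pass a two-sided exact permutation test (difference 0.43, p = 0.2, adjusted p = 0.25). That difference was 0.25 without EpiLC replicate 2 and 0.61 without EpiLC replicate 3.

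Genes that move sterol within the cell were also divided. Stard4, a soluble carrier of cholesterol between membranes and an SREBP target, was at 60.0, 66.5 and 68.2 TPM in EpiLCs, against 41.4, 38.9 and 36.4 TPM in ESCs (log2 fold change 0.72, SE 0.07, adjusted p = 6.7e-05). Npc2, which takes cholesterol from the lysosome lumen and hands it to Npc1, was at 51.3, 54.1 and 47.5 TPM in EpiLCs, against 138, 134 and 136 TPM in ESCs (log2 fold change -1.40, SE 0.06, adjusted p = 9.4e-07). This was the steepest decrease of the 27 and a 2.67-fold difference in means. Npc1, the membrane protein that exports the cholesterol from the lysosome, was at 23.8, 22.6 and 23.7 TPM in EpiLCs, against 19.1, 21.3 and 19.5 TPM in ESCs (log2 fold change 0.22, SE 0.07, adjusted p = 0.024).

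The pair of lysosomal partners therefore went apart. The call on Npc1 was lost without EpiLC replicate 1 (adjusted p = 0.0683), EpiLC replicate 3 (0.0631), ESC replicate 1 (0.0847) or ESC replicate 3 (0.0754) and under median-of-ratios scaling (0.0698), with p from 0.017 to 0.085 over the alternatives, whereas that on Npc2 held in all 14. The log2 ratio of Npc1 over Npc2 averaged -1.09 ± 0.12 in EpiLCs and -2.71 ± 0.10 in ESCs (SD, n = 3 each), a difference of 1.62, the largest of the 5 ratios, at the smallest two-sided exact permutation p of 0.1 (adjusted p = 0.167). The fifth ratio, Dhcr7 over Tm7sf2, a pair of sterol reductases, differed by 0.32 at the same p. In the 3 ratios at this p the EpiLC and ESC libraries did not overlap.

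Spread within a state had a pattern of its own. The median coefficient of variation was 6.61% over the EpiLC libraries and 5.02% over the ESC libraries, and exceeded 10% in 9 members in EpiLCs and 5 in ESCs. EpiLC replicate 2 was the highest EpiLC library in 18 of the 27 members, and ESC replicate 2 the highest ESC library in 14. Over all tested genes EpiLC replicate 2 was the highest of its group for 41.2% and ESC replicate 2 for 36.5%. Hmgcs1, Msmo1 and Hsd17b7 stood highest in EpiLC replicate 2 and Lss in ESC replicate 2. Ebp, Nsdhl, Mvk and Insig2 were lowest in replicate 2 of both groups, and of these Mvk and Insig2 are autosomal. With replicate 2 of both groups left out, 19 members were still called higher and 3 lower, against 4662 higher and 4164 lower of 14093 tested genes.

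**Figure D4:**
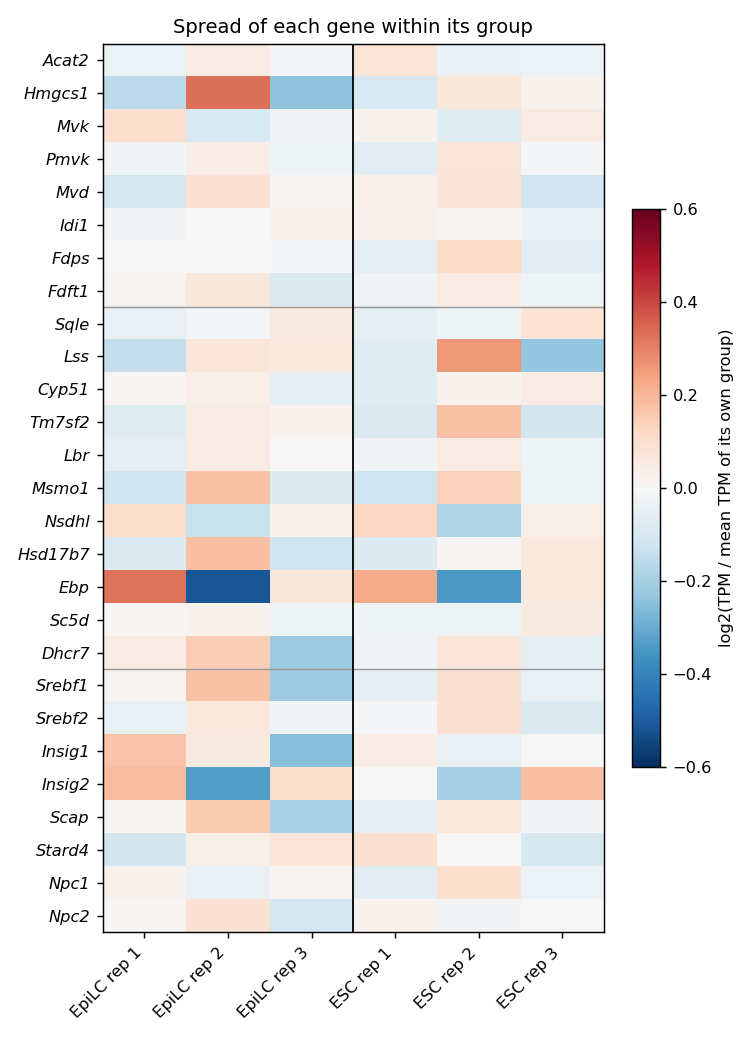
Log2 of TPM over the mean TPM of the same group (colour, red above and blue below the mean) for the 27 genes (rows, pathway order) in the 3 EpiLC and 3 ESC libraries (columns). Hmgcs1 lies above its mean in EpiLC replicate 2, and Ebp lies below its mean in replicate 2 of each group.

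Genes around the pathway were read from 5 other lists, beside the 36.1% of all tested genes called higher and the 30.9% called lower. Of 9 further sterol pathway genes, 4 rose (44.4%) and 3 fell (33.3%), both near the shares of all tested genes (median log2 fold change 0.19). Por, the electron donor of Cyp51 and Sqle, rose to 84.0 ± 8.15 TPM in EpiLCs, against 63.3 ± 3.18 TPM in ESCs, while Cyb5r3, a reductase that supplies electrons to Sc5d and Msmo1 through cytochrome b5, fell to 77.2 ± 6.41 TPM in EpiLCs, against 141 ± 11.4 TPM in ESCs. Erg28, a scaffold of the C4 demethylation enzymes in yeast, fell by 0.16 on the log2 scale, and Acat1, the mitochondrial thiolase, by 0.26. Without EpiLC replicate 3 or ESC replicate 3, 1 gene of this list was called lower. Arv1, a sterol homeostasis gene of the endoplasmic reticulum, averaged 19.05 ± 2.11 TPM in EpiLCs and 16.5 ± 2.08 TPM in ESCs and was not called.

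The branches that leave the mevalonate arm for other products were read from a list of their own. Of 10 genes for prenylation, dolichol, ubiquinone and tRNA isopentenylation, 0 were called higher with limma, also at an unadjusted p of 0.05, against 36.1% of all tested genes, and 4 fell (40%, against 30.9%; median -0.19, against 0.04 over all tested genes). Coq2, which prenylates the ubiquinone ring, fell to 14.95 ± 2.39 TPM in EpiLCs, against 25.1 ± 0.398 TPM in ESCs, Fntb, the farnesyltransferase beta subunit gene, by 0.43 on the log2 scale and the tRNA isopentenyltransferase gene Trit1 by 0.35. Fnta, the alpha subunit gene and the most abundant uncalled one, averaged 112 ± 3.52 TPM in EpiLCs and 123 ± 8.57 TPM in ESCs. Fold changes in this list ran from -0.72 (Coq2) to 0.08 (Nus1), all below the smallest change in the mevalonate arm (Fdft1, 0.18), and the difference between the lists was not tested.

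Of 13 genes for SREBP cleavage and sterol-dependent protein turnover, 6 rose (46.2%, against 36.1% of all tested genes) and 2 fell (15.4%, against 30.9%), with a median of 0.21. Rnf145, a ubiquitin ligase gene that responds to sterol, rose to 47.7 ± 4.23 TPM in EpiLCs, against 10.97 ± 0.890 TPM in ESCs (log2 fold change 2.02, SE 0.09, adjusted p = 1.2e-06). Pgrmc1, which binds heme and partners with sterol P450 enzymes, rose by 1.05; it is X-linked and, like Ebp, was lowest in replicate 2 of each group. Erlin1 and Erlin2, membrane proteins of the degradation machinery, fell by 0.85 and 0.40. Mbtps1, the site-1 protease that cleaves SREBPs, averaged 95.2 ± 9.65 TPM in EpiLCs and 84.0 ± 4.80 TPM in ESCs and was not called.

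Of 20 tested genes for uptake, storage and efflux, out of 23 listed, 8 rose and 8 fell (median 0.08). These shares of 40% each stand near the 36.1% and 30.9% of all tested genes, and 5 rather than 8 fell without replicate 2 of both groups. Lrp2, the endocytic receptor megalin, rose to 12.7 ± 1.52 TPM in EpiLCs, against 0.428 ± 0.0875 TPM in ESCs, and Soat1, which esterifies cholesterol for storage, to 74.3 ± 6.17 TPM in EpiLCs, against 12.5 ± 1.18 TPM in ESCs (log2 fold change 2.48, SE 0.09, adjusted p = 5.3e-07). Gramd1a, a carrier of cholesterol from the plasma membrane to the endoplasmic reticulum, fell by 0.91. Lrp1, an endocytic receptor, averaged 11.4 ± 1.12 TPM in EpiLCs and 12.9 ± 0.142 TPM in ESCs and was not called.

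Of 15 fatty acid synthesis genes, the main targets of SREBP1, 5 rose (33.3%, against 36.1% of all tested genes) and 7 fell (46.7%, against 30.9%), with a median of -0.09. Fasn, the fatty acid synthase, rose to 199 ± 14.1 TPM in EpiLCs, against 60.4 ± 3.27 TPM in ESCs, Mid1ip1, an activator of acetyl-CoA carboxylase, by 1.28 and Acaca, that carboxylase, by 1.12. Thrsp, a relative of Mid1ip1, fell to 0.699 ± 0.126 TPM in EpiLCs, against 12.5 ± 2.12 TPM in ESCs, Me1, which supplies NADPH, by 1.03 and Scd1, the stearoyl-CoA desaturase, to 160.1 ± 6.23 TPM in EpiLCs, against 304 ± 17.3 TPM in ESCs. Acly, which makes the cytosolic acetyl-CoA that both routes start from, averaged 313 ± 14.7 TPM in EpiLCs and 298 ± 9.48 TPM in ESCs and was not called.

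**Figure D5:**
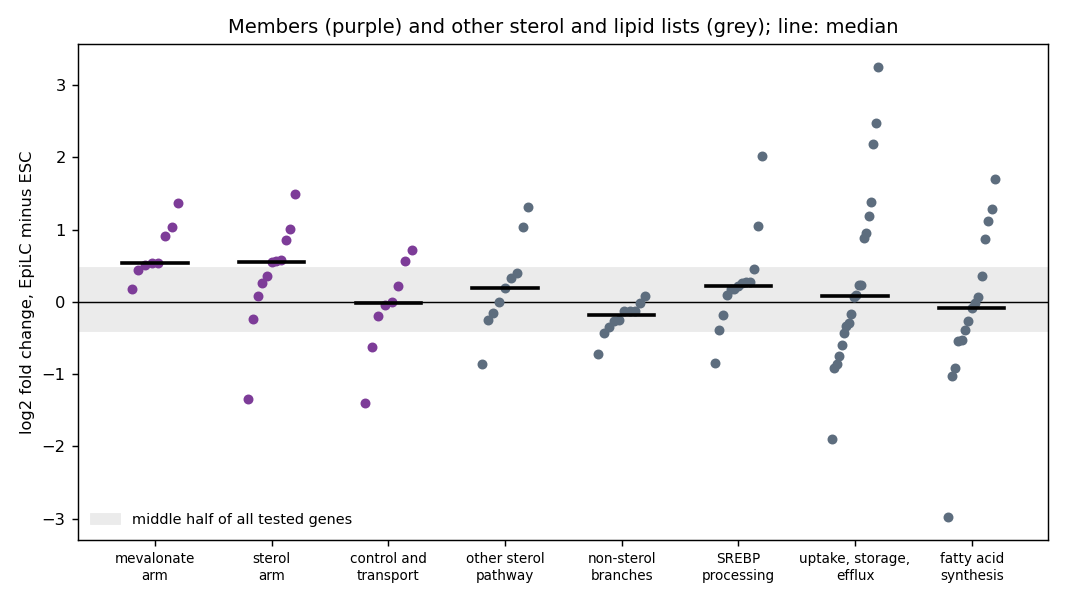
Log2 fold change, EpiLC minus ESC (y), of single genes in the 3 groups of members (purple) and 5 other lists (grey), with a line at each median and a grey band for the interquartile range of all tested genes, from -0.40 to 0.47. The medians of the mevalonate arm (0.53) and the sterol arm (0.55) lie above the band, and those of the other lists lie within it, from -0.19 to 0.21.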

How the data were processed

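Poly(A) RNA sequencing of 3 EpiLC and 3 ESC libraries gave 1 table of TPM values, deposited by the authors with 1 column per library. Per the submitters' processing notes, FastQC, Trim Galore, STAR, Salmon and the mm39/GRCm39 build belong to the processing, but their roles and the annotation release were not given in the sources used here. A dose-like tag in the column headers has no explanation in the labels. Every column sums to 1000000, so depth, counting intervals and a count model were not available, and a change in abundant genes shifts all others.

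Values were taken as log2(TPM + 1). The 14036 genes with a mean of at least 1 TPM were compared, EpiLC against ESC, by limma's two-sided moderated test (eBayes with trend after lmFit, version 3.58.1, R 4.3.3), and p-values were adjusted over these genes by Benjamini-Hochberg. Every adjusted p of a gene comes from this test, and the code was tested on simulated data. The members and gene lists were chosen with earlier results of these data known. All members are named. Of the other lists the rule was up to 3 called genes with the largest change in each direction and the most abundant uncalled gene. Some genes that it gives are not reported here, and Tmem55b was matched by its newer name Pip4p1. Ratios of 5 gene pairs were compared by exact permutation, and protein identity between them was not analysed here. Chromosomes came from GENCODE M21 (GRCm38) by gene identifier and promoters from RefSeq. Of 30 member promoter windows, 24 matched a transcript of their gene in the sense direction and 0 in the other. Python 3.11.15 with scipy 1.17.1 was used. Alternatives were pseudocounts of 0.1 and 0.5 TPM, filters at 0 (none) and at 5 TPM, quantile normalization, median-of-ratios scaling, a replicate block, leaving out each library, and, added after the data were seen, leaving out both replicate 2 libraries, the counts of members changed at least 2-fold under each setting, and the control and transport sum without Npc2.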

Additional observations from a re-analysis of the deposited data

How the results depend on the processing

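The count of members called higher was 16 to 19 over the 14 alternatives and that called lower 3 to 5, and 19 of the 23 called members were called in the same direction in every alternative, the exceptions being Hmgcs1, Fdft1, Tm7sf2 and Npc1. No called member changed direction. Leaving out single libraries gave 16 to 19 members higher and 3 to 4 lower. Members called with at least a 2-fold increase were 2 under median-of-ratios scaling and 3 to 4 without single libraries, in place of 4. Signs near 0 changed for Srebf1 without EpiLC replicate 3 (0.053, with -0.14 to 0.053 over the single libraries left out) and for Srebf2 (-0.038 to 0.051 over the single libraries left out) under median-of-ratios scaling (-0.045), quantile normalization (-0.0071), without EpiLC replicate 2 (-0.029), ESC replicate 1 (-0.0022) or ESC replicate 3 (-0.038), none of them called. The Srebf2 to Srebf1 difference ran from -0.039 to 0.11 when single libraries were left out. In the other sterol pathway list 1 to 3 genes fell when single libraries were left out, and in the uptake list 5 fell without replicate 2 of both groups. The cause was not tested. Arm ratios kept to 1.64 to 1.74 and 1.40 to 1.48 over their alternatives.

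With a replicate block 19 members were called higher and 4 lower, as without it, and 9612 rather than 9397 of all genes were called. Same-numbered libraries correlated in their deviations from the group means by 0.102, 0.142 and 0.0646 across genes, and each library correlated best with its own number, but the labels do not say that numbers pair the cultures. Depth is unknown in TPM, so changes of weakly expressed genes were not judged by counts.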

Other observations

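The make-up of each arm, as shares of its summed TPM, shifted along the route. Fdps took 40.7 ± 1.78% of the mevalonate arm in EpiLCs and 33.7 ± 1.11% in ESCs (SD, n = 3 each), and Mvd 6.58 ± 0.284% in EpiLCs and 4.28 ± 0.213% in ESCs. Fdft1, the step that turns farnesyl diphosphate toward sterols, took 7.45 ± 0.230% in EpiLCs and 11.1 ± 0.0960% in ESCs. In the sterol arm Lss held 12.6 ± 0.808% in EpiLCs and 6.44 ± 0.965% in ESCs, and Ebp 1.40 ± 0.443% in EpiLCs and 5.25 ± 1.16% in ESCs. Lbr and Msmo1 kept close to their shares, at 16.63 ± 0.35% and 27.6 ± 1.80% in EpiLCs, against 16.4 ± 0.170% and 26.8 ± 1.56% in ESCs. Shares within an arm sum to the whole, so a gain of one gene lowers the others, and no test was made.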
